A study of Mus musculus with 10 samples.

Results

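Heterotrimeric G proteins carry the signal from dopamine, adenosine and other seven-helix receptors into the cell. Their alpha, beta and gamma subunits were followed here through all 10 RNA-seq libraries of a mouse striatum study. The members are the 32 genes whose symbols name such a subunit, 15 alpha, 5 beta and 12 gamma, out of 32531 gene symbols in the deposited counts. Of these, 31 had at least 1 read in some library.

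The mice were adults of the Drd2-TRAP line CP101 (Drd2-EGFP/Rpl10a), whose Drd2-using cells (Drd2 encodes the dopamine D2 receptor) make an EGFP fusion of the ribosomal protein L10a. All groups carried this transgene. Animals had self-administered cocaine or saline intravenously under short access, and tagged polysomes were pulled down from whole striatum with anti-EGFP antibodies, a method called translating ribosome affinity purification (TRAP). Immunopurified (IP) ribosome-bound RNA was sequenced in 5 libraries after cocaine (cocaine IP 1 to 5) and 3 after saline (saline IP 1, 2 and 4). The remaining material consisted of 1 library of unbound RNA after cocaine and 1 library of input RNA after saline. The tag follows the Drd2 promoter, so other cells that use it, cholinergic interneurons among them, can contribute to the IP. Whether a library stands for 1 animal or a pool is not stated in the labels, so the spread between libraries may be partly technical.

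In a resting heterotrimer the alpha subunit holds GDP and sits on a beta-gamma dimer. An active receptor exchanges the nucleotide, and alpha and beta-gamma then act on separate targets. Alpha subunits of the Gs family raise cyclic AMP through adenylyl cyclases, those of the Gi/o family lower it, and those of the Gq/11 family act on phospholipase C beta. The G12/13 family is the remaining one. In the striatum, Gnal encodes the Golf alpha subunit, the main link from the dopamine D1 and adenosine (Adora2a) receptors to adenylyl cyclase, and the dopamine D2 receptor signals through Gi/o. Gng7 is the gamma subunit known to be needed for normal Golf levels in mouse striatum.

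Gene reads per library ran from 22975667 to 31631137 in the IP libraries and came to 20882691 in the unbound and 18408782 in the input library. Levels are given as CPM, gene reads normalised to the library's sequencing depth, after scaling by the trimmed mean of M values (TMM). The share of G protein genes in all gene reads was 0.876% to 1.09% across IP libraries, 0.738% for unbound and 0.748% for input RNA. Cocaine IP 5 was the lowest of the IP libraries in this share, and the ribosomal RNA gene Rn45s took 1.5% of its gene reads against 4.67% to 7.30% in the other IP libraries. The 6 indirect-pathway medium spiny neuron markers all passed 2-fold upward throughout the IP libraries in both comparisons below, with median log2 ratios of 2.78 to unbound RNA and 2.53 to input. The 6 oligodendrocyte and the 6 astrocyte markers all passed 2-fold downward in both. Of the 6 direct-pathway markers, 5 were so in the cocaine and 6 in the saline comparison, and none of the markers in these lists was at 0 in all IP libraries.

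A few members dominated the G protein reads of the IP libraries. Gnal, Gnao1, Gnb1, Gnb5 and Gng7 took 83.9% to 85.3% of all G protein reads in the IP libraries, 66.5% in the unbound and 68.5% in the input library. To compare genes with each other, CPM was divided by the length in kb of all exons of the gene (GENCODE vM21, GRCm38), and each gene was expressed as a share of its class.

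Among alpha subunits, Gnao1, the Go subunit, held 35.7% ± 1.69 of the CPM per kb in cocaine IP (SD, n = 5) and 36.6% ± 0.929 in saline IP (SD, n = 3), against 24.6% in unbound and 26.1% in input RNA. Gnal held 34.9% ± 1.61 in cocaine IP and 35.3% ± 1.47 in saline IP, against 21.9% in unbound and 21.1% in input RNA. The ranges of Gnao1 and Gnal shares overlapped in both IP groups, so their order is not set by these data. Gnaq, a Gq/11 subunit, followed with 8.18% ± 0.335 in cocaine IP and 7.73% ± 0.724 in saline IP. Gnai1, an inhibitory subunit, held 6.68% ± 1.40 in cocaine IP and 5.06% ± 0.224 in saline IP, against 19.0% in unbound and 17.7% in input RNA. Gnas, the widely used Gs subunit, held 4.82% ± 0.290 in cocaine IP and 4.71% ± 0.285 in saline IP, against 8.37% in unbound and 9.52% in input RNA. With the longest coding transcript as the length, a choice made after seeing the data, Gnas ranked ahead of Gnaq, so the order below the top pair depends on the length used.

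Gnb1 made up 60.6% ± 2.32 of the beta subunit CPM per kb in cocaine IP (SD, n = 5) and 60.2% ± 2.14 in saline IP (SD, n = 3), against 71.7% in unbound and 69.2% in input RNA. Gnb5, the beta subunit that pairs with the R7 class of RGS proteins, made up 36.6% ± 2.83 in cocaine IP and 36.6% ± 2.55 in saline IP, against 26.1% in unbound and 27.2% in input RNA. Gng7 was the main gamma subunit, with 58.7% ± 3.35 in cocaine IP and 61.4% ± 1.46 in saline IP, against 33.7% in unbound and 40.7% in input RNA. Gng10 held 21.7% ± 4.37 in cocaine IP and 18.5% ± 2.33 in saline IP. Gng3, a neuronal gamma subunit, held 17.1% ± 2.08 in cocaine IP and 17.9% ± 1.58 in saline IP, so Gng10 and Gng3 overlapped. A pair of gamma subunits, sizeable in the reference RNA, was scarce in the IP. Gng2 held 0.761% ± 0.326 in cocaine IP and 0.562% ± 0.195 in saline IP, against 12.9% in unbound and 7.84% in input RNA. Gng11 held 0.203% ± 0.129 in cocaine IP and 0.137% ± 0.0576 in saline IP, against 7.76% in unbound and 7.09% in input RNA.

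**Figure D1:**
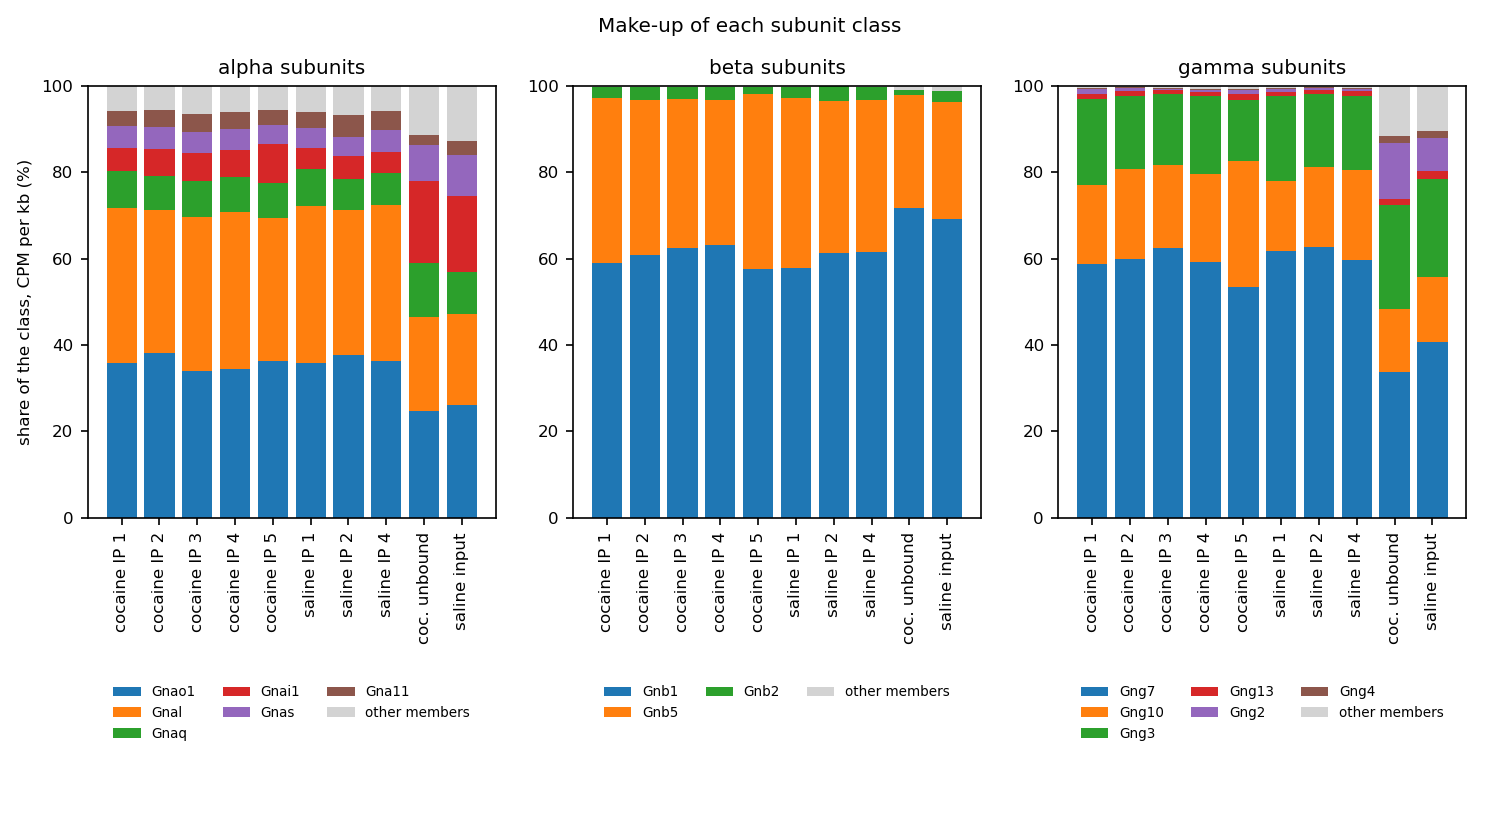
Share of each gene in the summed CPM per kb of its class (y axis, percent) in each library (x axis), with one panel each for alpha, beta and gamma subunits and minor members in grey. Gnao1 and Gnal together fill most of the alpha bar in every IP library, Gng7 most of the gamma bar, and Gng2 takes at most 1.19% of the gamma bar in an IP library, against 12.9% in unbound (coc. unbound) and 7.84% in input RNA.

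Several members known from other tissues were at or near 0. Gngt1, the gamma subunit of rod transducin, had 0 reads in all 10 libraries, and the counting floor of 3 reads corresponds to 0.0948 to 0.163 CPM. Gnb3, known from cones and taste cells, had 0 reads in the 8 IP libraries together, 4 in the unbound and 2 in the input library. The transducin alpha genes Gnat1 and Gnat2 had 10 and 11 reads over all IP libraries, and the Gq-family genes Gna14 and Gna15 had 4 and 7. Gngt2, the cone gamma subunit, had at most 8 reads in an IP library, against 44 in unbound and 30 in input RNA. This floor covers counting error only.

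The first comparison set each cocaine IP library against the unbound RNA and each saline IP library against the input. With 1 library of unbound and 1 of input RNA, neither comparison has a test. Both reference libraries were run in sequencing lane 1 and the IP libraries in lanes 4, 6 and 7. Lane and RNA fraction therefore cannot be told apart in these ratios. Ratios are log2 of IP CPM plus 1 over reference CPM plus 1. Only genes averaging 1 CPM or more over the libraries compared were used, and a gene was called higher or lower where every IP library passed 2-fold. In whole-tissue RNA, fewer cells of a type and less RNA per cell cannot be told apart, which touches every ratio here. Unbound and input RNA are different fractions, so the 2 comparisons are given side by side.

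Of 24 members measured against unbound RNA, 4 were higher in every cocaine IP library (Gnb2, Gnb5, Gng7 and Gng10), where 3.73% of all 12655 genes were. There were 6 lower members (Gna12, Gna13, Gng2, Gng4, Gng11 and Gng12), where 9.85% of all genes were. Of 25 members measured against input, 2 were higher in every saline IP library (Gnb5 and Gng7), where 1.45% of all 12894 genes were. There were 10 lower members, the same 6 plus Gnai1, Gnai2, Gnb4 and Gng8, where 11.8% of all genes were. Gng8 entered this count only through its level in the input, and without it 9 members were lower. These higher calls depend on scaling: with library size alone no member was called higher in either comparison, and the median of all genes then moved to -0.02 against unbound RNA and -0.10 against input, where TMM gave 0.16 against unbound RNA and 0.09 against input. With TMM the median ratio to unbound RNA was -0.39 ± 0.090 for 11 alpha, 0.88 ± 0.099 for 4 beta and -0.49 ± 0.16 for 9 gamma members (SD over 5 libraries). The medians to input were -0.19 ± 0.012 for 11 alpha, 0.68 ± 0.23 for 4 beta and -0.98 ± 0.061 for 10 gamma members (SD over 3 libraries). Without Gng8, an alternative added after seeing the data, the gamma median to input was -0.23 ± 0.145 over 9 members.

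**Figure D2:**
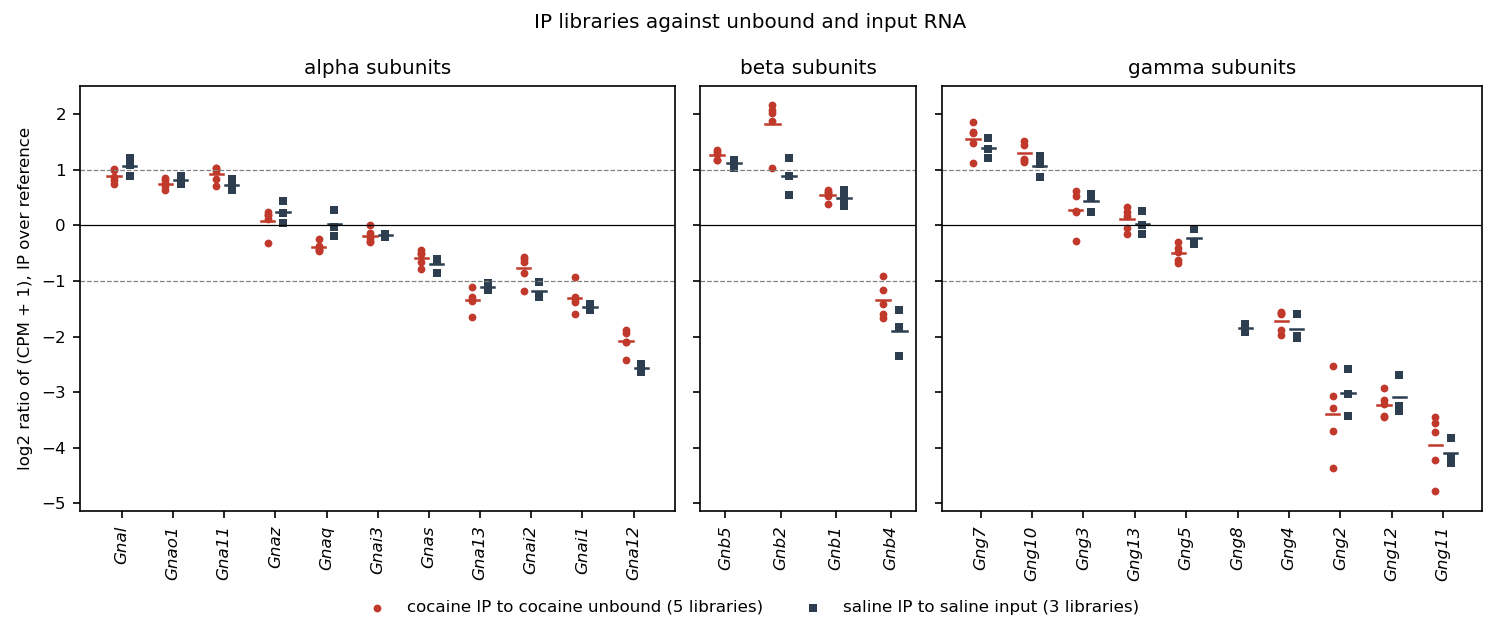
Log2 ratio of CPM + 1 of each IP library over unbound RNA (cocaine, circles, 5 libraries) and over input RNA (saline, squares, 3 libraries), y axis, for each measured subunit gene on the x axis, with bars at the means and dashed lines at 2-fold. The means of Gng7, Gnb5 and Gng10 lie above the upper line and Gng2, Gng11 and Gng12 lie far below the lower one in both comparisons.

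Gng7 (chromosome 10, 80948624 to 81014945 on GRCm38, as for all positions here) stood highest among the gamma subunits. Its level was 2000, 2255, 1987, 1745 and 1357 CPM in cocaine IP 1 to 5 and 2198, 2505 and 1955 CPM in saline IP 1, 2 and 4, against 623 CPM in unbound and 843.5 CPM in input RNA. All 8 IP libraries lay above both, cocaine IP 5 being the nearest. The log2 ratio was 1.56 ± 0.28 to unbound RNA (SD, n = 5) and 1.39 ± 0.18 to input (SD, n = 3). Gng7 reads stood at 42.4 to 160 per Gng2 read in cocaine IP and 71.6 to 151 in saline IP, against 2.26 in unbound and 4.48 in input RNA.

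Gnb5 (chromosome 9, 75306288 to 75345876) had 646.7, 617.6, 573.2, 572.7 and 634.8 CPM in cocaine IP 1 to 5 and 603.2, 612.5 and 556.5 CPM in saline IP 1, 2 and 4, against 252.1 CPM in unbound and 270.8 CPM in input RNA. The IP libraries lay close together and well above both reference values. Its ratio was 1.27 ± 0.082 to unbound RNA and 1.12 ± 0.074 to input. With the size factors of DESeq2 the mean ratio to input was 1.07, and not every library then passed 2-fold. Gng10 (chromosome 4, 59035088 to 59041903) had 217.6, 272.8, 213.7, 207.8 and 258.7 CPM in cocaine IP 1 to 5 and 198.3, 258.8 and 235.4 CPM in saline IP 1, 2 and 4, against 93.95 CPM in unbound and 108.5 CPM in input RNA. All IP libraries were above both references, and the ratios were 1.30 ± 0.18 to unbound RNA and 1.07 ± 0.19 to input, where saline IP 1 fell just short of the limit at 0.86. The Gng10 gene overlaps a same-strand gene model, so its counts depend on how the reads were assigned.

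Gnb2, the beta subunit reported to join Golf alpha and Gng7 in the striatum, had 47.4, 58.12, 52.42, 54.89 and 25.9 CPM in cocaine IP 1 to 5 and 41.61, 66.44 and 53.16 CPM in saline IP 1, 2 and 4, against 12.21 CPM in unbound and 28.06 CPM in input RNA. Cocaine IP 5 was far below the other cocaine libraries, and below the input library. The ratio was 1.83 ± 0.46 to unbound RNA and 0.89 ± 0.33 to input, and the 2 reference libraries themselves differed for this gene. With the size factors of DESeq2 or a prior of 5 CPM, not every cocaine library passed 2-fold. Gnb1, the most abundant beta subunit, had 1366, 1433, 1421, 1474 and 1236 CPM in cocaine IP 1 to 5 and 1206, 1471 and 1328 CPM in saline IP 1, 2 and 4, against 947.3 CPM in unbound and 944.5 CPM in input RNA. It was above both references in all 8 libraries, by 0.55 ± 0.099 against unbound RNA and 0.49 ± 0.14 against input on the log2 scale.

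Gnal had 2451, 2179, 2271, 2484 and 2068 CPM in cocaine IP 1 to 5 and 2614, 2099 and 2386 CPM in saline IP 1, 2 and 4, against 1234 CPM in unbound and 1127 CPM in input RNA. All IP libraries were higher, but the mean ratios of 0.89 ± 0.11 to unbound RNA and 1.06 ± 0.16 to input lay about the 2-fold limit and not every library passed it. Gnas went the other way, with 348.2, 333.4, 297.4, 330.3 and 274.5 CPM in cocaine IP 1 to 5 and 330.4, 281.2 and 334.7 CPM in saline IP 1, 2 and 4, against 471.5 CPM in unbound and 507.9 CPM in input RNA. Its ratios were -0.58 ± 0.14 to unbound RNA and -0.69 ± 0.14 to input. Within the Gs family, Gnal had 6.54 to 7.64 reads per Gnas read in cocaine IP and 7.13 to 7.91 in saline IP, against 2.62 in unbound and 2.22 in input RNA, a ratio within one library that no scaling alters. Both genes overlap other gene models, Gnal with Chmp1b on its own strand and Gnas with Nespas on the other.

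In the Gi/o family Gnao1 and Gnai1 lay on opposite sides of the references. Gnao1 (chromosome 8, 93809966 to 93969388) had 2414, 2483, 2126, 2322 and 2239 CPM in cocaine IP 1 to 5 and 2549, 2324 and 2386 CPM in saline IP 1, 2 and 4, against 1370 CPM in unbound and 1377 CPM in input RNA. Every IP library was higher, by 0.76 ± 0.089 against unbound RNA and 0.81 ± 0.069 against input on the log2 scale. Gnai1 (chromosome 5, 18265135 to 18360355) had 99.2, 114.1, 118.9, 122.2 and 157.0 CPM in cocaine IP 1 to 5 and 99.13, 93.06 and 92.04 CPM in saline IP 1, 2 and 4, against 299.4 CPM in unbound and 264.5 CPM in input RNA. Its ratios were -1.30 ± 0.24 to unbound RNA, where cocaine IP 5 alone missed the limit at -0.93, and -1.47 ± 0.057 to input. Gnai2, a broadly used inhibitory subunit, had 26.48, 22.14, 27.12, 25.26 and 17.38 CPM in cocaine IP 1 to 5 and 25.61, 30.63 and 25.13 CPM in saline IP 1, 2 and 4, against 40.65 CPM in unbound and 62.69 CPM in input RNA. All IP libraries were below both, with ratios of -0.77 ± 0.25 to unbound RNA and -1.18 ± 0.15 to input. Gnai3 and Gnaz, whose product inhibits adenylyl cyclase and resists pertussis toxin, had mean ratios within 0.24 of 0 in both comparisons.

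The Gq/11 pair split. Gnaq had 328.9, 285.1, 288.8, 300.2 and 282.0 CPM in cocaine IP 1 to 5 and 339.1, 245.7 and 277.0 CPM in saline IP 1, 2 and 4, against 389.6 CPM in unbound and 280.8 CPM in input RNA. Its ratio to unbound RNA was -0.39 ± 0.090 and its ratio to input was 0.02 ± 0.23, the saline IP libraries falling on both sides of the input. Gna11 was higher in all IP libraries, with ratios of 0.92 ± 0.14 to unbound RNA and 0.72 ± 0.10 to input.

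Both G12/13 genes were lower. Gna12 (chromosome 5, 140758408 to 140830431) had 3.961, 2.565, 4.162, 3.431 and 3.432 CPM in cocaine IP 1 to 5 and 3.233, 3.041 and 2.826 CPM in saline IP 1, 2 and 4, against 18 CPM in unbound and 22.73 CPM in input RNA, with ratios of -2.09 ± 0.21 to unbound RNA and -2.56 ± 0.073 to input. Gna13 had 51.18, 41.3, 50.6, 53.48 and 60.22 CPM in cocaine IP 1 to 5 and 47.22, 47.73 and 51.63 CPM in saline IP 1, 2 and 4, against 131.4 CPM in unbound and 106.7 CPM in input RNA. No IP library of either gene reached its reference value. The added 1 CPM pulls the ratios of low genes such as Gna12 toward 0.

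Among the lower gamma subunits, Gng2 (chromosome 14, 19872559 to 19977627) had 47.15, 32.21, 12.42, 20.46 and 27.64 CPM in cocaine IP 1 to 5 and 30.71, 16.57 and 22.15 CPM in saline IP 1, 2 and 4, against 276.1 CPM in unbound and 188.3 CPM in input RNA. All IP libraries lay far below the references, cocaine IP 1 being the highest and cocaine IP 3 the lowest, with ratios of -3.38 ± 0.69 to unbound RNA and -3.01 ± 0.43 to input. Gng11 (chromosome 6, 4003904 to 4008445) had 2.058, 0.302, 0.925, 1.735 and 2.273 CPM in cocaine IP 1 to 5 and 1.014, 0.895 and 1.604 CPM in saline IP 1, 2 and 4, against 34.78 CPM in unbound and 35.65 CPM in input RNA. Cocaine IP 2 held 8 reads of this gene, and the ratios were -3.94 ± 0.55 to unbound RNA and -4.09 ± 0.24 to input. Gng12 (chromosome 6, 66896397 to 67021350) had 7.36, 5.846, 7.003, 8.677 and 5.795 CPM in cocaine IP 1 to 5 and 9.381, 5.617 and 6.034 CPM in saline IP 1, 2 and 4, against 72.76 CPM in unbound and 65.79 CPM in input RNA. Its ratios were -3.23 ± 0.21 to unbound RNA and -3.09 ± 0.35 to input. Gng4 had 8.139, 7.996, 6.375, 8.031 and 5.929 CPM in cocaine IP 1 to 5 and 9.413, 6.691 and 6.912 CPM in saline IP 1, 2 and 4, against 25.98 CPM in unbound and 30.23 CPM in input RNA. Its ratios were -1.71 ± 0.19 to unbound RNA and -1.86 ± 0.24 to input, with every IP library below both references.

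Gnb4 was the lower beta subunit, with 13.85, 11.39, 11.99, 16.67 and 19.88 CPM in cocaine IP 1 to 5 and 14.32, 7.657 and 11.42 CPM in saline IP 1, 2 and 4, against 38.28 CPM in unbound and 43.05 CPM in input RNA. Its ratios were -1.35 ± 0.31 to unbound RNA, where cocaine IP 5 missed the limit at -0.91, and -1.90 ± 0.42 to input. Without cocaine IP 5, Gnai1 and Gnb4 both counted as lower than unbound RNA in every library. Gng8, a gamma subunit of olfactory and vomeronasal neurons, passed the minimum for the saline comparison only through the input. It had 8, 1, 4, 6 and 3 reads in cocaine IP 1 to 5 and 6, 7 and 8 reads in saline IP 1, 2 and 4, against 51 in the unbound and 72 in the input library. Gng3, Gng5 and Gng13 had mean ratios between -0.49 and 0.45 in both comparisons. The 4 most abundant gamma subunits per kb included Gng3, with 293.7, 277.8, 226.3, 230.3 and 157.3 CPM in cocaine IP 1 to 5 and 303.4, 292.0 and 242.5 CPM in saline IP 1, 2 and 4, against 191.6 CPM in unbound and 203.5 CPM in input RNA. Cocaine IP 5 was again the lowest, and the only IP library under both references. Gng13, the last of these, had 7.173, 7.732, 5.681, 5.247 and 6.775 CPM in cocaine IP 1 to 5 and 6.655, 9.231 and 7.562 CPM in saline IP 1, 2 and 4, against 5.912 CPM in unbound and 7.546 CPM in input RNA, so the IP libraries fell on both sides.

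Markers of several other cell types were also lower in the IP, but not of all. The summed oligodendrocyte markers stood at 211 to 407 CPM in cocaine IP and 207 to 441 CPM in saline IP, against 4380 CPM in unbound and 4130 CPM in input RNA. Summed astrocyte markers stood at 84.0 to 148 CPM in cocaine IP and 46.6 to 142 CPM in saline IP, against 1640 CPM in unbound and 1750 CPM in input RNA. Summed direct-pathway markers stood at 79.4 to 149 CPM in cocaine IP and 92.3 to 108 CPM in saline IP, against 576 CPM in unbound and 736 CPM in input RNA. Summed GABA interneuron markers stood at 9.84 to 21.1 CPM in cocaine IP and 8.91 to 17.8 CPM in saline IP, against 211 CPM in unbound and 247 CPM in input RNA. Summed microglia markers stood at 2.26 to 4.46 CPM in cocaine IP and 2.90 to 6.97 CPM in saline IP, against 43.8 CPM in unbound and 56.2 CPM in input RNA. No cholinergic interneuron marker passed 2-fold in every IP library in either comparison, and their sum was 19.3 to 46.6 CPM in cocaine IP and 19.1 to 36 CPM in saline IP, against 39.1 CPM in unbound and 58.2 CPM in input RNA. Summed endothelial markers were low throughout, at 3.65 to 10.9 CPM in cocaine IP and 6.21 to 8.97 CPM in saline IP, against 6.99 CPM in unbound and 12.5 CPM in input RNA. The part of each cell type in the G protein ratios was not tested.

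**Figure D3:**
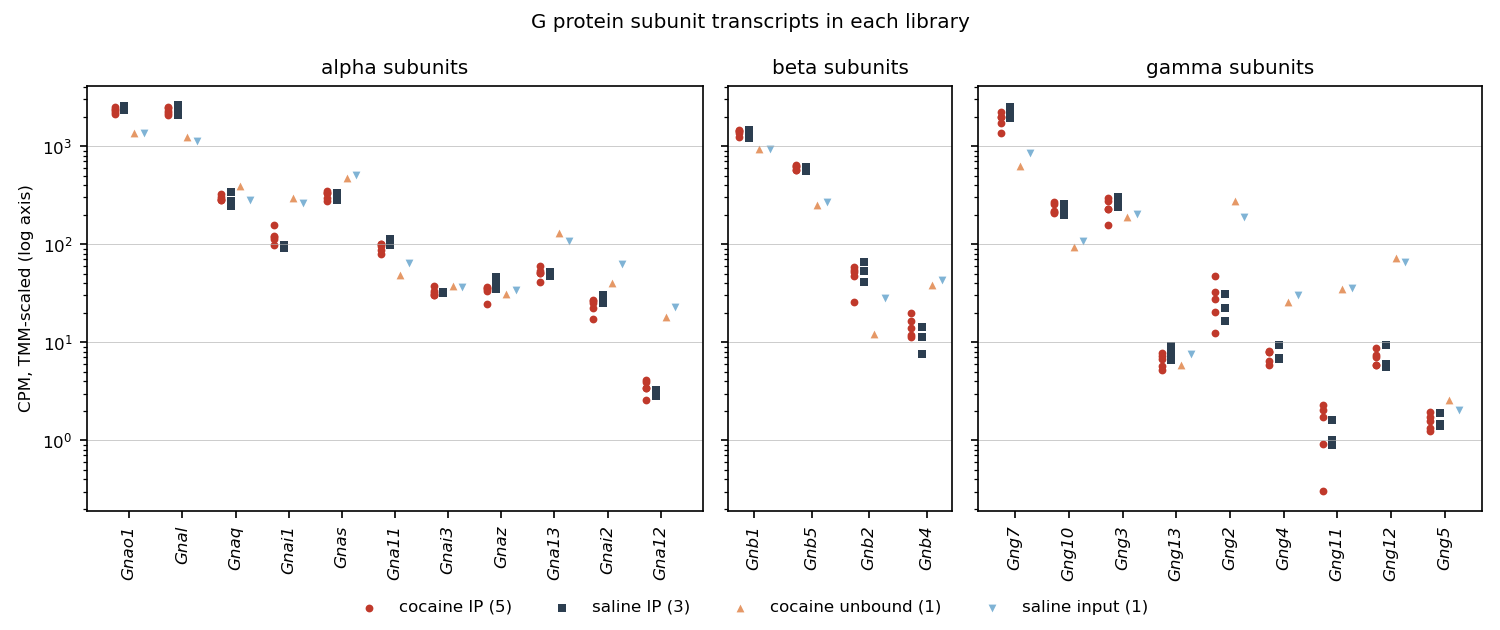
CPM after TMM scaling (y axis, log scale) of the measured subunit genes (x axis, ordered within each class by IP level per kb) in each cocaine IP, saline IP, cocaine unbound and saline input library. The cocaine and saline IP points overlap for every gene shown but Gnai1, while unbound and input lie below them for Gnal, Gnao1, Gnb5 and Gng7 and above them for Gna12, Gng2, Gng11 and Gng12.

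Sequence before the transcription start is shown for Gng7 and Gnb5, the members called higher in both comparisons, and for Gng12 and Gng2, which had the lowest mean ratios in both among the members with an entry. Entries for 24 of the 32 members were used from a set of RefSeq (GRCm38.p6) promoters, and none was used for Gng11 or Gnal. The entries used are not the whole set, and whether the set holds one for Gnal was not looked at. Absence from the entries used does not show that RefSeq lacks one. Each line gives the 250 bases before the first listed start, and capitals mark a GC box (GGGCGG) or TATA box (TATAAA) on either strand.
Gng7 (chr10:81014926-81015175, minus strand): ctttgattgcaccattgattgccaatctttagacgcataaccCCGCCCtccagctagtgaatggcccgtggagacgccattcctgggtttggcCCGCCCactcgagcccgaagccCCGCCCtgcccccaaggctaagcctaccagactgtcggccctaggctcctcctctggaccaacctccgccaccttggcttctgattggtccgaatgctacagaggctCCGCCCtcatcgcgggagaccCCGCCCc
Gnb5 (chr9:75306038-75306287, plus strand): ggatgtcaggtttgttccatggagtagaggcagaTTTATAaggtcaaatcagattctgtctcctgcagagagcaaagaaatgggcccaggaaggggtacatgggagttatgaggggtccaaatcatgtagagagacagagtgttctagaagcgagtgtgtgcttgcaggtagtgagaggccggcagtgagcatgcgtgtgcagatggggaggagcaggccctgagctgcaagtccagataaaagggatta
Gng12 (chr6:66896147-66896396, plus strand): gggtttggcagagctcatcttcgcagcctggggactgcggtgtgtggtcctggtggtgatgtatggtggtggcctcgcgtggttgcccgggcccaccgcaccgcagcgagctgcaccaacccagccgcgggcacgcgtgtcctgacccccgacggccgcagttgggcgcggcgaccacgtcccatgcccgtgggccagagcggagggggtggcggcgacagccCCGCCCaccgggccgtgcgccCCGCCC
Gng2 (chr14:19976694-19976943, minus strand): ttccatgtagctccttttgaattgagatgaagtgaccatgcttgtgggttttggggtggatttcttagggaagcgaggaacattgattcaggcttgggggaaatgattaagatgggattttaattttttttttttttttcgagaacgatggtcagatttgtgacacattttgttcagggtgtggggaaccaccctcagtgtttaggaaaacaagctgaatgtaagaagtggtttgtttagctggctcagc

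The Gng2 window lies inside the gene's bounds in GENCODE, whose start is farther upstream than that of RefSeq. Gng7 held 5 GC boxes in this window, Gng12 held 2, and Gnb5 and Gng2 held 0, where 32.7% of 32851 promoters of the same length held at least 1. RefSeq lists a further start for Gng7 and for Gng12, and the window before it held 0 GC boxes in each. Gnb5 held 1 TATA box, at a place well upstream of the start, where 12.4% of promoters held at least 1. GC content was 62.8% in Gng7, 50.8% in Gnb5, 74.4% in Gng12 and 41.2% in Gng2, against a median of 52.4% over all promoters. Neither motif was found in both higher genes or in both lower genes.

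Proteins that work with the subunits were read from a list of 36 genes, 35 of which were in the counts and 29 of which were measured. Against unbound RNA, 1 of these passed 2-fold upward and 6 downward in all 5 libraries, where 3.73% and 9.85% of all genes did. Against input, 0 were higher and 6 lower in all 3 libraries, where 1.45% and 11.8% of all genes were. The median ratio was -0.39 ± 0.071 to unbound RNA and -0.20 ± 0.18 to input. The same 6 were lower in both: Rgs11, Adcy2, Plcb4, the GIRK channel genes Kcnj3 and Kcnj6, and Adrbk2, a receptor kinase. Adrbk2 averaged 2.95 CPM in cocaine IP and 3.32 CPM in saline IP, against 39.0 CPM in unbound and 24.5 CPM in input RNA. Kcnj3 averaged 21.0 CPM in cocaine IP and 20.0 CPM in saline IP, against 108 CPM in unbound and 66.8 CPM in input RNA. Plcb4, a phospholipase C beta, averaged 7.10 CPM in cocaine IP and 6.38 CPM in saline IP, against 35.6 CPM in unbound and 21.3 CPM in input RNA. Kcnj6 averaged 0.498 CPM in cocaine IP and 0.271 CPM in saline IP, against 7.38 CPM in unbound and 5.32 CPM in input RNA, and passed the minimum only through the reference libraries. Adcy3, an adenylyl cyclase, was higher in every library against unbound RNA only.

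Partners of Golf and Gnb5 were named after their values were seen. Ric8b, the chaperone of Golf alpha, had ratios of 0.71 ± 0.022 to unbound RNA (SD, n = 5) and 0.83 ± 0.085 to input (SD, n = 3). Adcy5, the main striatal adenylyl cyclase, had ratios of 1.09 ± 0.45 to unbound RNA and 0.77 ± 0.28 to input. Rgs7bp, the membrane anchor of the R7 RGS and Gnb5 complex, had ratios of 0.60 ± 0.19 to unbound RNA and 0.89 ± 0.16 to input. The listed R7 members did not all go one way. Rgs7 had 0.51 ± 0.15 to unbound RNA and 0.43 ± 0.051 to input. Rgs9, an R7 member of the striatum, had -0.87 ± 0.18 to unbound RNA and -0.70 ± 0.080 to input. Rgs6, a low gene, had -1.31 ± 0.41 to unbound RNA and -1.05 ± 0.38 to input, and Rgs11 was lower in both as given above.

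The second comparison, which the design sets as its question, was cocaine IP against saline IP. It was tested with edgeR's quasi-likelihood test over 13800 genes on the 5 cocaine and 3 saline libraries, unpaired. Of the 24 members that could be tested, 0 passed an adjusted p of 0.05 (Benjamini-Hochberg), where 0% of all genes did. At an unadjusted p under 0.05 there was 1 member, where 2.14% of all genes were, and DESeq2 likewise gave 0 adjusted and 1 unadjusted. The median log2 fold change was 0.02 over 11 alpha, 0.06 over 4 beta and -0.02 over 9 gamma members, 0.00 over all 24 and 0.01 over all genes. There were 12 positive and 12 negative members, from -0.29 to 0.41. The 95% interval lay within 1 on either side of 0 for 22 of them, the exceptions being Gng2, up to 1.06, and Gng11, up to 1.48.

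**Figure D4:**
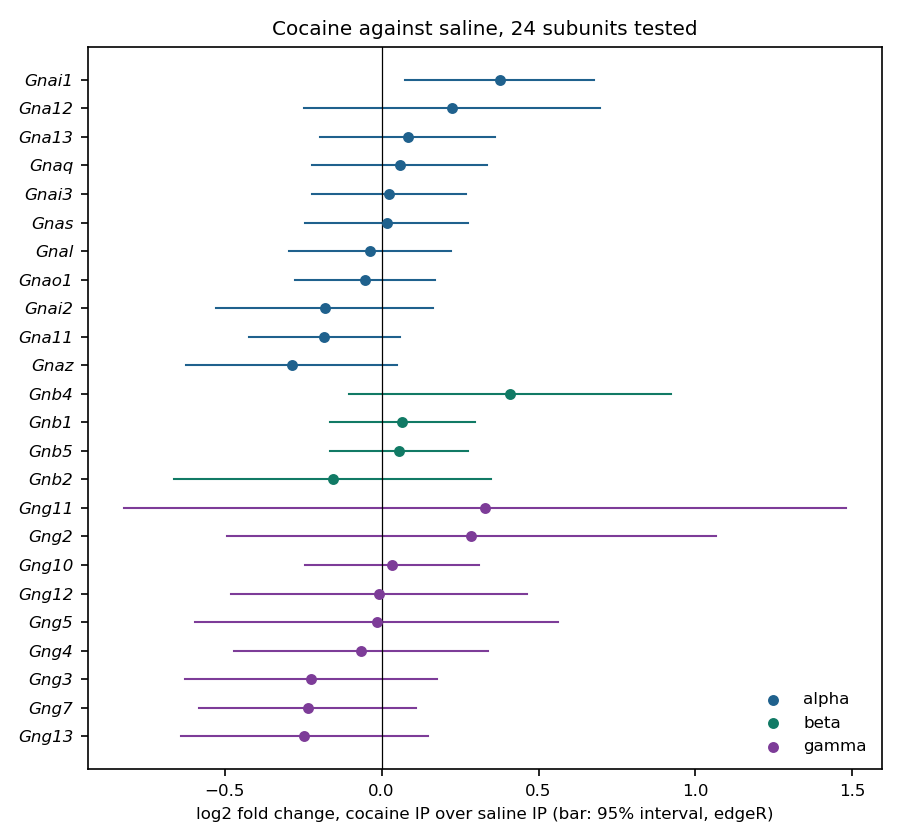
Log2 fold change of cocaine IP over saline IP (x axis) with an approximate 95% interval derived from the edgeR test for each of the 24 tested subunit genes (y axis), coloured by class. Only the interval of Gnai1, from 0.08 to 0.68, leaves out 0, and no gene passed adjustment over all genes.

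The lowest p belonged to Gnai1, with 122 ± 21.3 CPM in cocaine IP (SD, n = 5) and 94.7 ± 3.84 CPM in saline IP (SD, n = 3). The log2 fold change was 0.38 (SE 0.14, 95% interval 0.08 to 0.68, edgeR adjusted p = 0.9998), and Gnai1 was the member with an unadjusted p under 0.05. Its groups did not overlap, as in 2.31% of all genes, but the gap was slight: the lowest cocaine library had 99.2 CPM and the highest saline library 99.13 CPM. The 3 cocaine libraries of sequencing lane 4 had 118.9, 122.2 and 157.0 CPM, and no saline library was run there. Within lane 6, cocaine IP 1 and 2 exceeded saline IP 4 by 0.21 on the log2 scale. Excluding the lane 4 libraries gave 0.18 (SE 0.14), and with lane as a term the value was 0.24 (SE 0.22). Lane 7 held only saline IP 1 and 2. In every fit with lane as a term the treatment value thus came from lane 6, whose only saline library was saline IP 4. The lowest edgeR adjusted p = 0.738 in any fit tried was that with the replicate block. Without saline IP 2, without saline IP 4, with lane as a term or without lane 4, Gnai1 no longer had an unadjusted p under 0.05.

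Gnaz and Gnb4 had the next lowest p. Gnaz had 33.1 ± 4.92 CPM in cocaine IP and 40.7 ± 5.78 CPM in saline IP, a log2 fold change of -0.29 (SE 0.15, 95% interval -0.62 to 0.05), and its groups overlapped. With lane as a term its value was 0.03, and without saline IP 1 it was -0.18. Without saline IP 4 it was -0.39, with an unadjusted p under 0.05. Gnb4 had 14.8 ± 3.53 CPM in cocaine IP and 11.1 ± 3.34 CPM in saline IP, a log2 fold change of 0.41 (SE 0.23, 95% interval -0.10 to 0.92), and the groups overlapped. This value was 0.63 without saline IP 1, where its unadjusted p was under 0.05, 0.19 without saline IP 2, 0.27 without cocaine IP 5, 0.19 without the lane 4 libraries and 0.17 with lane as a term. Cocaine IP 5 was the highest cocaine library for Gnai1 and Gnb4 and the lowest for Gnaz. The summed direct-pathway markers stood at 149 CPM there, against 79.4 to 114 CPM in the other 7 IP libraries. Summed astrocyte and endothelial markers were also highest there, at 148 and 10.9 CPM. Those of oligodendrocytes, microglia, cholinergic and GABA interneurons were not. The part of cocaine IP 5 in these values beyond the leave-one-out fits was not tested.

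For the members that dominate the IP, no difference between the treatments passed adjustment. The log2 fold change of cocaine IP over saline IP was -0.05 (95% interval -0.28 to 0.17) for Gnao1, -0.04 (-0.29 to 0.22) for Gnal, 0.07 (-0.17 to 0.30) for Gnb1 and 0.06 (-0.17 to 0.28) for Gnb5. Gng7 averaged 1869 ± 338 CPM in cocaine IP and 2219 ± 276 CPM in saline IP, a log2 fold change of -0.24 (-0.58 to 0.11), and its groups overlapped. With lane as a term the Gng7 value was 0.15, and leaving out 1 library at a time gave -0.33 to -0.15. Of the 30 partner genes tested, 0 passed adjustment and 0 had an unadjusted p under 0.05. The lowest p-values were those of Arhgef11 at -0.28 (SE 0.17, edgeR adjusted p = 0.9998), and Gprin1 at -0.26 (SE 0.17, adjusted p = 0.9998).

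Cocaine and saline IP libraries share the numbers 1, 2 and 4, and libraries with the same number deviated together. No pair shared a lane. Numbers 1 and 2 set cocaine in lane 6 against saline in lane 7, and number 4 set cocaine in lane 4 against saline in lane 6. Treatment and lane therefore cannot be told apart in the differences within pairs or in the fit with the number as a block. Within these 3 pairs, 2 members were higher after cocaine each time (Gnai1 and Gnb5), where 12.1% of all genes were, and 4 were lower each time (Gna11, Gnaz, Gng3 and Gng7), where 15.6% of all genes were. For Gng7 the log2 differences were -0.14, -0.15 and -0.16 in numbers 1, 2 and 4, and for Gnai1 they were 0.00, 0.29 and 0.40. A fit of the 6 libraries with the number as a block gave 4 members at an unadjusted p under 0.05, where 6.65% of all genes were, and 0 past adjustment. These were Gng2 at 0.50 (SE 0.15, edgeR adjusted p = 0.588), Gnai1 at 0.24 (SE 0.090, adjusted p = 0.738), Gnb4 at 0.35 (SE 0.15, adjusted p = 0.747) and Gnaz at -0.21 (SE 0.098, adjusted p = 0.747). The same 6 libraries without the block gave 0 members. For Gng2 the differences were 0.60, 0.92 and -0.11 in numbers 1, 2 and 4, so the pairs did not all go one way. Over all 8 libraries its value was 0.29 (SE 0.36), and without cocaine IP 1, the highest library at 47.15 CPM, it was -0.02. It was 0.09 without saline IP 2, 0.54 without saline IP 1 and 0.46 without cocaine IP 3. Without the lane 4 libraries it was 0.79, with an unadjusted edgeR p under 0.05. With lane as a term, where saline IP 4 is the only saline library behind the treatment value, it was 0.87. Summed cholinergic interneuron markers were also highest in cocaine IP 1, at 46.6 CPM, against 19.1 to 36 CPM in the other IP libraries. So were GABA interneuron markers, at 21.1 CPM against 8.91 to 17.8 CPM. Summed indirect-pathway markers were lowest there, at 6890 CPM against 7940 to 13000 CPM. Oligodendrocyte and astrocyte sums, at 407 and 113 CPM, were not the highest there. The part of these marker levels in the Gng2 value was not tested.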

How the data were processed

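RNA-seq was analysed from 5 cocaine IP, 3 saline IP, 1 cocaine unbound and 1 saline input library, grouped by sample titles. The deposited files hold raw read counts per gene symbol, made by the authors with STAR 2.0.0e and HTSeq on build mm10, per the submitters' processing notes. Which annotation and strand setting were used is not given in the sources used here, so 16 members whose genes overlap another model are uncertain. Of gene, no-feature and ambiguous reads, 12.9% to 14.4% lay in no feature in IP libraries, 27.4% in the unbound and 25.5% in the input library. These reads stayed out of library sizes.

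Cocaine IP was set against saline IP with edgeR 4.0.16 (R 4.3.3; quasi-likelihood test, two-sided, TMM, filterByExpr, treatment as the only term, Benjamini-Hochberg adjustment over all genes). DESeq2 1.42.0, other scalings and filters, lane, the replicate block and leave-one-out fits were alternatives. IP ratios used TMM over all 10 libraries, a prior of 1 CPM and genes averaging 1 CPM or more. The steps were tested on simulated data. No replicate was a copy of another: the most similar pair had a chi-square of 20.2 per degree of freedom.

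Deviations from the group means of the same-numbered libraries correlated at 0.731, 0.734 and 0.436 over 9671 genes averaging 5 CPM or more. All exceeded 0.1, so differences within numbers and a fit with the number as a block are given beside the main test. The main test kept treatment as its only term and did not use this pairing. Over 21 members the correlations were 0.529, 0.609 and 0.186 for numbers 1, 2 and 4. The labels leave the meaning of the number unstated, and same-numbered cocaine and saline IP libraries were run in different lanes.

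Values in every library are given for the 4 alpha, 2 beta and 4 gamma members highest per kb and for members past 2-fold in every IP library. Also named are the 3 members and 2 partners with the lowest p for cocaine, and up to 4 partners past 2-fold in both ratios. The members and lists were chosen with earlier results of these data known.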

Additional observations from a re-analysis of the deposited data

Results flagged for a closer look

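Gnaz, whose product is an inhibitory alpha subunit, had 24.56 CPM in cocaine IP 5, far below the other 4 cocaine IP libraries at 33.66 to 36.73 CPM. The gap was 0.748 of the group's range, above the critical value of 0.71 for 5 libraries. Of 24 members looked at in this way, 1 was picked out, and chance does so in about 1 in 20 groups. The saline IP libraries had 35.17 to 46.71 CPM of Gnaz. Cocaine IP 5 was the lowest cocaine library for 12 of the 24 members, among them Gng7, Gng3, Gnb2, Gnal and Gnb1. It was the highest for 4, and each other cocaine library was the lowest for 2 to 5. The same count over all genes was not made. Over all genes, pairs with cocaine IP 5 had a chi-square of 73.7 to 130 per degree of freedom. The other cocaine pairs had 20.2 to 75.4. In cocaine IP 5, Rn45s took 1.5% of gene reads. The part of these in the Gnaz value was not tested.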

How the results depend on the processing

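No adjusted call was made for any member or gene in the cocaine comparison under any of the 17 other fits, the replicate block included. Relative to the fit of all 8 IP libraries, signs turned for Gnal with the replicate block (0.013) and with the same 6 libraries unpaired (0.0087), for Gnao1 with lane as a covariate (0.063) or without the lane 4 libraries (0.029), and with lane as a covariate for Gnaz (0.033) and Gng7 (0.15). Leaving out 1 library at a time gave -0.12 to 0.038 for Gnal, -0.0059 to 0.13 for Gnb1 and -0.016 to 0.54 for Gng2. Over all 24 members, 6 kept their sign in every fit. With lane as a covariate the treatment value rests on saline IP 4 alone among the saline libraries. The replicate block had 903 genes at an unadjusted p under 0.05 and the same libraries unpaired had 141, against 295 in the fit of all 8, and the lowest adjusted p with the block was 0.0599. The count of members higher than input was 0 of 25 with library size alone, where 70 of 12988 genes were. It was 1 with DESeq2 size factors, where 152 of 12910 genes were. At a limit of 1.5-fold it was 6, where 1354 of 12894 genes were. The count higher than unbound RNA was 0 of 24 with library size alone, where 247 of 12695 genes were. At 1.5-fold it was 7, where 1715 of 12655 genes were. Against input, the alpha median was -0.39 with library size alone, -0.23 with DESeq2 size factors, -0.16 with TMM over those libraries alone and -0.17 with a prior of 5 CPM. The gamma median was -1.13 with library size alone, -1.16 when the prior was 0.1 CPM, -0.39 when it was 5 CPM, -0.91 with a minimum of 5 CPM, -0.23 without Gng8 (added after seeing the data) and -1.24 with no minimum beyond 1 read. Against unbound RNA, the alpha median was -0.58 with library size alone, -0.49 with DESeq2 size factors and -0.22 with no minimum. The beta median was 0.69, 0.78 and 0.55 under the same settings, and the gamma median was -0.71 and -0.21 with priors of 0.1 and 5 CPM, -0.85 with a minimum of 5 CPM and -1.32 with no minimum. The cause was not tested. The ratios have 1 unbound and 1 input library, so their own spread is unknown.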
